A study of Homo sapiens with 12 samples.

Results

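The genes described here encode 10 enzymes of purine and pyrimidine synthesis. They were listed by their role in the pathway, with earlier results of these data known. PPAT, GART, PAICS, ADSL and ATIC act in the route to inosine monophosphate (IMP), IMPDH2 leads from IMP to guanine nucleotides, CAD, DHODH and UMPS build uridine monophosphate, and HPRT1 salvages purine bases. All 10 of the 10 listed genes were measured, among 10945 rows of the count table that carry a gene symbol. The cells were HepG2, an established human liver cancer line labelled wild type and used as a model of hepatocytes. They were cultured in EMEM (a minimal essential medium), LGDMEM and HGDMEM (DMEM with low and with high glucose) or Plasmax (a medium modelled on the composition of human plasma). All were first kept and seeded in EMEM, all media held 10% heat-inactivated fetal bovine serum, and cells were collected after 96 h, the medium having been renewed at 48 h. There were 12 libraries, 3 per medium. The labels do not say whether replicates were separate cultures. If they were not, the p-values reflect technical spread between libraries alone.

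Purine synthesis assembles the ring step by step on phosphoribosyl pyrophosphate (PRPP), with carbon atoms from folate carriers, and ends in IMP, from which adenine and guanine nucleotides are made. Pyrimidine synthesis builds the ring first, through an oxidation in the inner mitochondrial membrane that feeds electrons to ubiquinone, and then attaches it to PRPP. Hepatocytes make purines for other tissues as well as for themselves, and dividing cells need both routes to copy their DNA, while salvage enzymes recover bases at less cost.

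The deposited counts with a gene symbol summed to between 3995365 and 5840057 per library, and the 10 genes together held 0.0954% to 0.114% of them. Levels are in CPM, counts scaled to library sizes that were adjusted by the TMM method, with mean ± SD over n = 3. The libraries are of the 3′ ends of messages, so a CPM follows the number of messages, and 1 gene's level is compared here only with its own level in other media. Mean counts per library ran from 91.0 for HPRT1 to 1236 for PAICS. The labelled cell line was checked on its hepatocyte and hepatoma markers. All 10 of 10 were measured, with a summed level of 21370 to 26740 CPM in EMEM, LGDMEM and HGDMEM and 12280 to 13865 CPM in Plasmax. The leukocyte list had 3 of 6 genes measured (CD14, LYZ and CD68), at 2122 to 3294 CPM in the first 3 media and 1966 to 2194 CPM in Plasmax, and its defining genes PTPRC and CD3E were not analysed here. Cholangiocyte genes (KRT19 and SOX9, 2 of 3) summed to 295.6 to 403.7 CPM and 613.8 to 693.8 CPM, and endothelial and stromal genes (3 of 7) to 34.2 to 65.4 CPM and 69.4 to 94.9 CPM. The hepatocyte, cholangiocyte and stromal sums of Plasmax stood apart from those of the other media, the leukocyte sums of Plasmax lay below those of EMEM and HGDMEM and overlapped those of LGDMEM (2122 to 2885 CPM), and the part of these differences in the results below was not tested. In bulk libraries such as these, fewer cells that express a gene and less of its RNA per cell cannot be told apart.

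Promoter sequence is shown first for the genes whose window holds an E-box (CACGTG, the site bound by MYC with MAX, whose known targets include nucleotide synthesis genes). RefSeq windows of 250 bases before to 50 bases after the start (GRCh38.p14, another build than that of the counts) matched 8 of the 10 genes, in 12 windows, with none for ADSL and IMPDH2. The word stood in 4 of the 12 windows, of 4 genes, against 7.26% of all 35116 windows. PPAT and PAICS are a divergent pair on chromosome 4. The PPAT window is chr4:56435566-56435865 (minus strand) and the PAICS window that overlaps it is chr4:56435502-56435801 (plus strand), with starts 137 bases apart and 236 shared bases that are exact reverse complements. One CACGTG serves as the match of both, at -182 from the PPAT start and 40 from the PAICS start. The ATIC window, chr2:215311809-215312108 (plus strand), holds the word at -46 and at 29, and the DHODH window, chr16:72008494-72008793 (plus strand), holds it at -159. Capitals mark CACGTG, and each sequence reads 5′ to 3′ on the gene's strand.
PPAT: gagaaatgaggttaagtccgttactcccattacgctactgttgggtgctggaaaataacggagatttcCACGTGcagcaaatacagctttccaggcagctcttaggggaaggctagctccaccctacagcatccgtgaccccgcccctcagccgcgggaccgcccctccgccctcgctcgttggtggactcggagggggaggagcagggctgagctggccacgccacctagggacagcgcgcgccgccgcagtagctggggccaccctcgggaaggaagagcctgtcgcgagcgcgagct
ATIC: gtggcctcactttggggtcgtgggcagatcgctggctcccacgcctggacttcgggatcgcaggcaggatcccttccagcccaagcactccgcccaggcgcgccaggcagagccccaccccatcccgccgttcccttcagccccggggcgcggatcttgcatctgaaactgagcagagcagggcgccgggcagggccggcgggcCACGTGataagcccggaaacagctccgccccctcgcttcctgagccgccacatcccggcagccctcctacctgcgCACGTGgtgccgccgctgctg
DHODH: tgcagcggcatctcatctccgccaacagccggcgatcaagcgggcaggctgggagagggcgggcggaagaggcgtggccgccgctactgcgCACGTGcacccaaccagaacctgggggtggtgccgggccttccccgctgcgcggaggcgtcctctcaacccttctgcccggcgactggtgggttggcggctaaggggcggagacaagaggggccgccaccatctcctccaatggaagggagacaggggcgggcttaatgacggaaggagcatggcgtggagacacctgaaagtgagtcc

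Other words were searched on both strands in the same windows. The E2F words TTTCCCGC and TTTGGCGC stood in 0 and 1 of the 12 windows, the latter in a GART window at -245, against 1.63% and 0.652% of all windows. The NRF1 word GCATGCGC and the ATF4 word TGATGCAA stood in 0 of the 12, against 3.05% and 0.866%. A match is only a run of letters and says nothing of binding. Of the 5 regulators listed, 1 rose and 1 fell between EMEM and Plasmax, where 22.1% of all genes were called. MYC (43.4 ± 0.288 CPM in Plasmax and 37.2 ± 7.40 CPM in EMEM) and ATF4 (1921 ± 217 and 1935 ± 307 CPM) did not pass the test. MAX, the partner of MYC, rose from 94.6 ± 12.5 to 142.3 ± 11.9 CPM, by 0.59 on the log2 scale (SE 0.16, adjusted p = 0.0107). E2F1, a driver of S-phase genes, fell from 124.3 ± 31.8 to 47.7 ± 6.09 CPM, a log2 difference of -1.38 (SE 0.23, adjusted p = 0.000309). Against LGDMEM MAX was not called (adjusted p = 0.257). RPS6KB1, also listed, was not called against EMEM (0.50, adjusted p = 0.144) but was higher in Plasmax than in LGDMEM and HGDMEM (adjusted p = 0.0356 and 0.0270).

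Across the 4 media, 1 of the 10 genes passed the test and 9 did not. The test was the quasi-likelihood F test of edgeR, adjusted by Benjamini and Hochberg's method over all genes, and it called 22.9% of all genes at an adjusted p under 0.05. The gene called was IMPDH2, and its call was close to the threshold (adjusted p = 0.0489). Adjusted p for the other 9 ran from 0.168 (UMPS) to 0.945 (PPAT). The highest medium mean exceeded the lowest by between 1.125-fold (PPAT) and 1.507-fold (DHODH). At an unadjusted p under 0.05 the same test took 1 of the 10 genes and 35.1% of all genes.

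**Figure D1:**
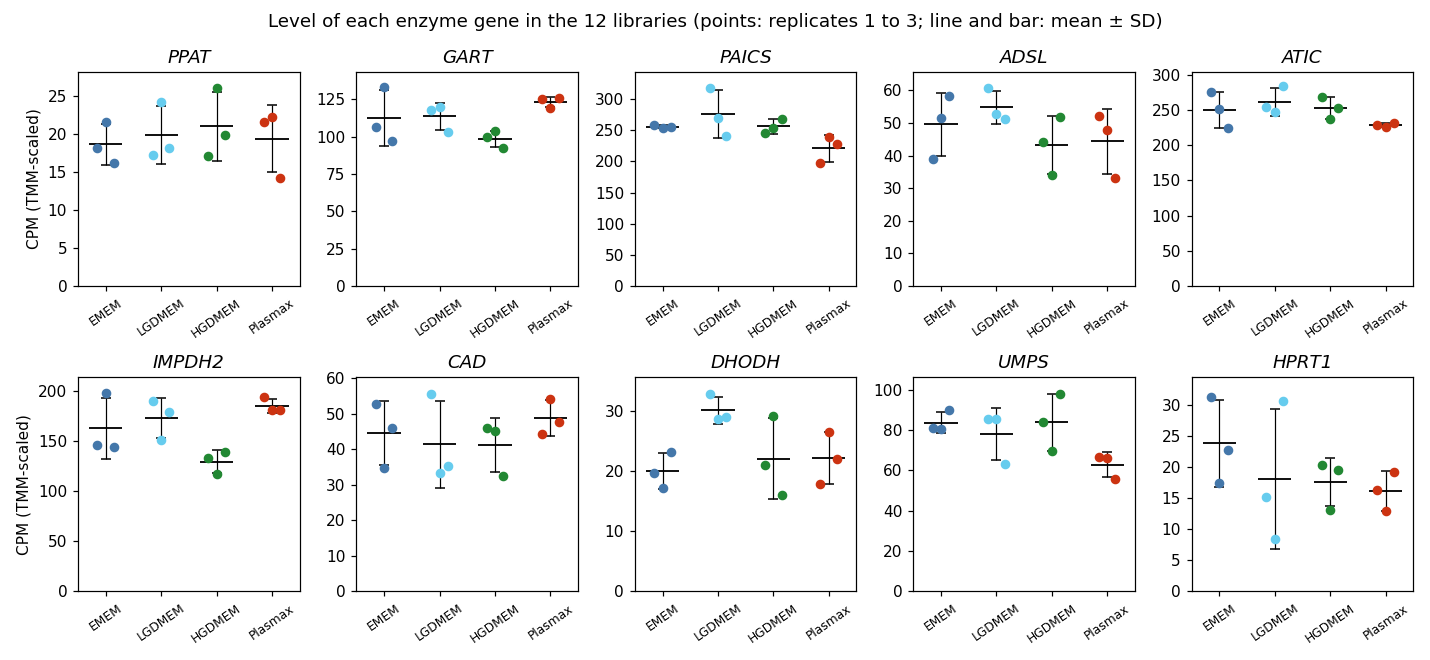
Level of each of the 10 genes in CPM (vertical axes from 0, TMM-scaled) in the 4 media, with a point for each of the 3 libraries and a line and bar for the mean and SD. The 3 HGDMEM points of IMPDH2 (116.7 to 138.5 CPM) lie below all 9 others, as do the 3 Plasmax points of PAICS (196.7 to 238.5 CPM). For GART, ATIC, DHODH and UMPS some pairs of media do not overlap, and for PPAT, ADSL, CAD and HPRT1 all pairs do. Libraries did not overlap for 39.4%, 36.2% and 42.6% of all genes in Plasmax against EMEM, LGDMEM and HGDMEM. In the pairs without Plasmax these shares ran from 11.7% to 15%. The share of all genes with a medium below all other libraries, as for IMPDH2 and PAICS, was not computed.

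IMPDH2, which turns IMP into xanthosine monophosphate and limits the rate of guanine nucleotide synthesis, had its lowest levels in HGDMEM. The levels in HGDMEM were 132.8, 116.7 and 138.5 CPM in replicates 1 to 3. They were 193.4, 180.8 and 181.3 CPM in Plasmax, 189.8, 151.0 and 178.6 CPM in LGDMEM, and 146.1, 197.6 and 144.1 CPM in EMEM. All 3 HGDMEM libraries were below the other 9, whose levels overlapped between media. IMPDH2 was higher in Plasmax than in HGDMEM, at 185.2 ± 7.13 against 129.3 ± 11.3 CPM, a log2 fold change of 0.52 (SE 0.14, 95% interval 0.22 to 0.81, adjusted p = 0.0106 by edgeR's quasi-likelihood test). This was the 1 call among the 10 genes in any of the 6 pairs of media. Without HGDMEM replicate 2, the lowest of the libraries, it was 0.44 with an adjusted p of 0.0570, while the other 14 of 15 alternative fits kept an adjusted p under 0.05. Among these 14, the fit with no filter repeats the main fit. At a threshold of 0.01 IMPDH2 would not be called.

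Between HGDMEM and the other conventional media IMPDH2 did not pass the test. The log2 difference of HGDMEM from LGDMEM (173.1 ± 20.0 CPM) was -0.42 (SE 0.14, unadjusted p = 0.00800, adjusted p = 0.429) and from EMEM (162.6 ± 30.3 CPM) it was -0.33 (SE 0.14, unadjusted p = 0.0301, adjusted p = 0.557). In both pairs the libraries did not overlap. Plasmax differed from EMEM by 0.19 (95% interval -0.11 to 0.48) and from LGDMEM by 0.10 (95% interval -0.20 to 0.39). The order of the means was Plasmax, LGDMEM, EMEM and HGDMEM, and the first 3 did not differ beyond their spread. The test over the 4 media was less stable than the pair. It kept an adjusted p under 0.05 in 9 of 20 settings, with 0.0623 on library totals alone, 0.0523 under upper-quartile scaling, 0.0219 with DESeq2 and 0.0335 with limma voom. Among the 9, the setting with no filter repeats the main fit, since filterByExpr removed 0 genes. Leaving out any of HGDMEM 1, 2 or 3 (0.111, 0.207 and 0.0803), Plasmax 1, 2 or 3 (0.111, 0.0907 and 0.0926), EMEM 1 (0.0526) or EMEM 3 (0.0532) ended the call. An antisense gene, AC137630.3, overlaps IMPDH2 in the GENCODE annotation, and whether the counting used strand is not given in the sources used here.

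Genes whose levels followed IMPDH2 closely over the 12 libraries were MAP4 and TLK1. The measure was the root mean square difference of log2 CPM, each gene centred on its own mean, among the 7830 genes that averaged 10 CPM or more. It was 0.139 and 0.140, the lowest values of all, where the root mean square of IMPDH2 about its own mean was 0.239. MAP4, a microtubule-associated protein, stood at 106.3, 91.2 and 112.3 CPM in HGDMEM and 150.8, 147.3 and 144.9 CPM in Plasmax. Its 3 HGDMEM libraries were below all others, as for IMPDH2, and its 3 Plasmax libraries were above all others. MAP4 and TLK1 were picked by closeness to IMPDH2 in these same libraries, so shared low levels in HGDMEM follow largely from that choice. TLK1, a protein kinase, stood at 41.8, 33.3 and 37.2 CPM in HGDMEM and 49.8, 53.8 and 53.1 CPM in Plasmax, and these libraries did not overlap.

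PPAT, the amidotransferase of the first committed step of purine synthesis, did not pass the test between any media. Its levels were 18.2, 21.5 and 16.2 CPM in EMEM, 17.2, 24.2 and 18.1 CPM in LGDMEM, 17.1, 26.0 and 19.9 CPM in HGDMEM, and 21.6, 22.2 and 14.3 CPM in Plasmax. All 4 ranges overlapped, and the 4 means lay between 18.6 and 21.0 CPM. Plasmax against EMEM gave a log2 difference of 0.05 (95% interval -0.46 to 0.57, adjusted p = 0.912), and the comparisons with LGDMEM and HGDMEM gave -0.04 and -0.12 (adjusted p = 0.936 and 0.768).

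PAICS, the bifunctional enzyme of the middle steps whose gene faces PPAT across the promoter shown, had its lowest levels in Plasmax. It stood at 196.7, 238.5 and 227.8 CPM in Plasmax, and at 259.0, 253.5 and 255.4 CPM in EMEM. LGDMEM had 318.3, 270.1 and 241.3 CPM and HGDMEM 246.2, 253.4 and 268.6 CPM. All 3 Plasmax libraries were below all 9 others, yet no pair passed the test. The log2 differences of Plasmax were -0.21 from EMEM (SE 0.12, adjusted p = 0.238), -0.32 from LGDMEM (SE 0.12, adjusted p = 0.0702) and -0.21 from HGDMEM (SE 0.12, adjusted p = 0.221). Without LGDMEM replicate 3 the comparison with LGDMEM gave -0.41 with an adjusted p of 0.0214. The same differences for PPAT, given above, lay closer to 0, and whether the pair of genes differed in response was not tested. GENCODE lists 7 pseudogenes named after PAICS, 3 after HPRT1 and 2 after PPAT, and how the authors' counting divided reads among such copies is not given, so these 3 genes' values are less certain.

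GART, the enzyme with several catalytic domains that follows PPAT in the pathway, had its narrowest range in Plasmax. Its levels there were 125.0, 119.4 and 125.7 CPM. They were 99.6, 103.6 and 92.6 CPM in HGDMEM, 117.6, 119.9 and 103.2 CPM in LGDMEM, and 106.6, 133.3 and 97.4 CPM in EMEM. Plasmax and HGDMEM did not overlap, but the log2 difference of 0.32 (SE 0.13, unadjusted p = 0.0276) had an adjusted p of 0.0863. Against EMEM and LGDMEM it was 0.13 and 0.12, with adjusted p of 0.530 and 0.578. The order of the means was Plasmax, LGDMEM, EMEM and HGDMEM, as for IMPDH2, and no neighbours in it differed beyond their spread. SON overlaps GART on the opposite strand in the GENCODE annotation, and the strand setting is not known. Here, and for the overlaps named for IMPDH2 and ADSL, only the spans of whole genes were compared. Whether an overlap reaches the ends of messages that were sequenced, and so mixes reads, was not examined.

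ADSL and ATIC close the route to IMP. ADSL, a lyase used in IMP synthesis and again on the way to adenine nucleotides, stood at 39.1, 51.4 and 58.3 CPM in EMEM, 60.6, 52.7 and 51.2 CPM in LGDMEM, 44.1, 34.1 and 51.8 CPM in HGDMEM, and 52.1, 47.8 and 33.1 CPM in Plasmax. The media overlapped, and the log2 differences of Plasmax were -0.16, -0.30 and 0.04 from EMEM, LGDMEM and HGDMEM (adjusted p = 0.621, 0.316 and 0.921). ATIC, which adds the last ring carbon and closes the ring, stood at 228.2, 226.0 and 231.5 CPM in Plasmax. EMEM had 275.2, 251.7 and 223.8 CPM, LGDMEM 253.9, 246.5 and 283.9 CPM, and HGDMEM 268.6, 237.9 and 252.1 CPM. Plasmax was thus below every LGDMEM and HGDMEM library and within the range of EMEM. Its log2 differences were -0.13, -0.19 and -0.15, each with an SE of 0.12, and adjusted p was 0.464, 0.258 and 0.390. For ADSL, SGSM3 overlaps on the same strand and AL022238.2 on the opposite strand, so its counts are less certain.

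Of the 3 pyrimidine enzymes, UMPS came nearest to a call. UMPS makes uridine monophosphate from orotate, and was at 66.5, 66.3 and 55.6 CPM in Plasmax. It was at 80.8, 80.6 and 89.8 CPM in EMEM, 84.0, 69.7 and 98.1 CPM in HGDMEM, and 85.3, 85.3 and 62.9 CPM in LGDMEM. The Plasmax libraries were below every EMEM and HGDMEM library, and LGDMEM replicate 3 lay among them. The log2 difference of Plasmax was -0.41 from EMEM (SE 0.16, 95% interval -0.75 to -0.08, adjusted p = 0.0731), -0.42 from HGDMEM (SE 0.16, adjusted p = 0.0628) and -0.31 from LGDMEM (SE 0.16, adjusted p = 0.191). These did not pass the test with all libraries in the fit. With only the libraries compared in the fit, the adjusted p was 0.0403 against EMEM and 0.0444 against HGDMEM, and without HGDMEM replicate 2 the latter was -0.54 with an adjusted p of 0.0300.

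CAD, which joins the first pyrimidine steps in 1 protein, had levels that overlapped in all media. They were 52.7, 34.7 and 46.1 CPM in EMEM, 55.5, 33.2 and 35.3 CPM in LGDMEM, 45.9, 45.2 and 32.4 CPM in HGDMEM, and 44.3, 54.2 and 47.7 CPM in Plasmax. Plasmax differed by 0.14, 0.24 and 0.24 on the log2 scale from EMEM, LGDMEM and HGDMEM, with adjusted p of 0.709, 0.467 and 0.447. DHODH, the mitochondrial enzyme that oxidises dihydroorotate, was highest in LGDMEM, at 32.8, 28.7 and 28.98 CPM. It was at 19.7, 17.3 and 23.1 CPM in EMEM, 21.0, 29.3 and 16.1 CPM in HGDMEM, and 17.9, 26.5 and 22.1 CPM in Plasmax. The LGDMEM libraries were above all EMEM and Plasmax libraries, and HGDMEM replicate 2 lay among them. LGDMEM differed from EMEM by 0.59 (SE 0.23, 95% interval 0.10 to 1.08, unadjusted p = 0.0211), with an adjusted p of 0.542. Plasmax differed from LGDMEM by -0.44 (SE 0.23, adjusted p = 0.197).

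HPRT1, the salvage enzyme for hypoxanthine and guanine and a gene often used as a reference in quantitative PCR, had the fewest counts and the widest spread of the 10. Its levels were 31.3, 17.4 and 22.7 CPM in EMEM, 15.1, 8.45 and 30.6 CPM in LGDMEM, 20.3, 13.1 and 19.5 CPM in HGDMEM, and 16.3, 12.9 and 19.2 CPM in Plasmax. All 4 ranges overlapped. Plasmax differed from EMEM by -0.56 (SE 0.35, 95% interval -1.30 to 0.19, adjusted p = 0.285), an interval that holds both no difference and a fall of more than 2-fold. The coefficient of variation (CV) of HPRT1 within a medium was 37.7%, against 10.5% from counting error alone.

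**Figure D2:**
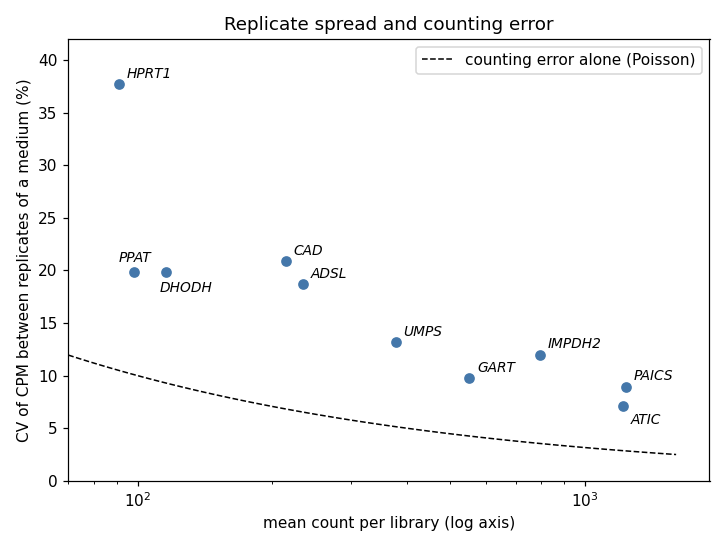
CV between the replicates of a medium (vertical axis, percent) against mean count per library (horizontal log axis) for the 10 genes, with the counting error as a dashed line. Every gene lies above the line, from ATIC at 7.10% to HPRT1 at 37.7%.

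For all 10 genes the spread between libraries exceeded counting error. The CV was 8.88% for PAICS (2.84% from counting), 12.0% for IMPDH2 (3.55%), 19.8% for both PPAT (10.1%) and DHODH (9.29%), and 20.9% for CAD (6.82%). HPRT1, PPAT and DHODH, with mean counts of 91.0, 98.1 and 116 a library, had the widest intervals together with CAD and ADSL.

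In the comparisons with Plasmax, 0 of the 10 genes were called against EMEM, where 22.1% of all genes were, and 0 against LGDMEM, where 21.2% were. Against HGDMEM 1 was called, where 26.9% of all genes were. DESeq2 and limma voom also called 0, 0 and 1, and at an unadjusted p under 0.05 there were 1, 1 and 3 genes, where 34.1%, 33.5% and 37.4% of all genes were. In a list of 10, none of these counts lies more than about 3 genes below the share of all genes, and 3 of 10 against HGDMEM is near it. Libraries that did not overlap were found for 2 genes (PAICS and UMPS) against EMEM, 3 (PAICS, ATIC and DHODH) against LGDMEM and 5 (GART, PAICS, ATIC, IMPDH2 and UMPS) against HGDMEM, with 39.4%, 36.2% and 42.6% of all genes. These 3 comparisons share the Plasmax libraries and are not independent. The median log2 fold change of the 10 genes was -0.04, -0.18 and -0.06, and that of all genes was 0.02, 0.00 and 0.01. Signs were mixed, with 5, 3 and 4 genes above 0.

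Between the 3 conventional media 0 of the 10 genes were called. The share of all genes was 0.0731% for LGDMEM against EMEM, 0.164% for HGDMEM against EMEM and 0.064% for HGDMEM against LGDMEM, so a count of 0 is near the background. DESeq2 and limma voom also called 0, and 1 gene in each comparison had an unadjusted p under 0.05 (DHODH, then IMPDH2 in both with HGDMEM), against 7.91%, 7.58% and 7.86% of all genes. The same single genes had libraries that did not overlap, against 12%, 15% and 11.7% of all genes. Medians of the 10 were 0.08, -0.05 and -0.08.

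**Figure D3:**
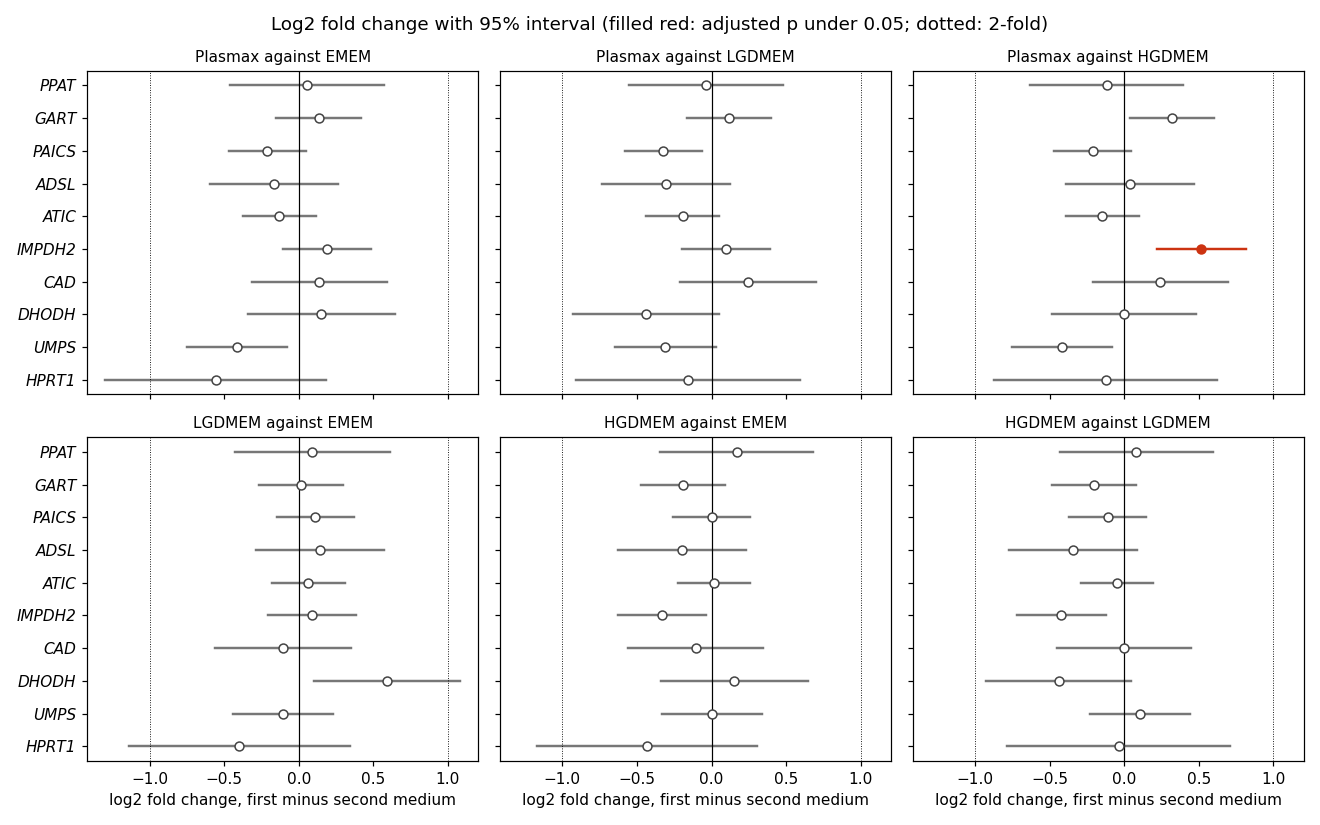
Log2 fold change of each gene with its 95% interval (horizontal axes, first medium minus second) in the 6 comparisons, with filled red for an adjusted p under 0.05 and dotted lines at 2-fold. IMPDH2 in Plasmax against HGDMEM (0.52) is the 1 filled point, and the intervals of HPRT1 and DHODH reach past a dotted line in some comparisons.

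Each 95% interval is for 1 gene and 1 pair of media, and the intervals do not hold jointly. They rest on the spread between libraries, which is technical alone if the replicates were not separate cultures. Against EMEM, 9 of the 10 genes had a 95% interval for Plasmax that stayed within 2-fold in either direction, HPRT1 being the exception, and against LGDMEM and HGDMEM all 10 did. The shares of all genes were 51.3%, 51.0% and 48.7%. Intervals widen as counts fall, and all genes include genes with fewer counts than these. Genes of like count were not compared, so the shares do not show that the 10 genes varied less than others. A bound of 1.5-fold held for 5, 5 and 4 of the 10. The summed level of the 10 genes was 976.9 to 1059 CPM in EMEM, 1020 to 1146 CPM in LGDMEM, 928.9 to 989.6 CPM in HGDMEM and 958.3 to 994.7 CPM in Plasmax.

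Other genes of nucleotide metabolism were listed by role. Of 76 listed, 65 were measured, and Plasmax against EMEM called 8 higher and 16 lower. Of all genes, 22.1% were called against EMEM, 21.2% against LGDMEM and 26.9% against HGDMEM. Against LGDMEM it called 6 higher and 14 lower (13 in all without LGDMEM replicate 1 or without Plasmax replicate 3), and against HGDMEM 8 higher and 15 lower. Between the conventional media 0 were called, also by DESeq2 and limma voom (2 for LGDMEM against EMEM and 2 for HGDMEM against LGDMEM without LGDMEM replicate 1). At an unadjusted p under 0.05 there were 4, 4 and 8, for LGDMEM against EMEM, HGDMEM against EMEM and HGDMEM against LGDMEM. Of all genes, 7.91%, 7.58% and 7.86% had such a p. The 6 other synthesis enzymes measured had no call against any medium, and neither DESeq2 nor limma voom called any. At an unadjusted p under 0.05 there were 1, 2 and 1 of them against EMEM, LGDMEM and HGDMEM, where 34.1%, 33.5% and 37.4% of all genes were. Without Plasmax replicate 3 the count of CTPS1 and CTPS2 called was 1 in each. PFAS, IMPDH1, GMPS and ADSS differed by -0.01, 0.16, -0.02 and -0.04 between Plasmax and EMEM, and CTPS1 and CTPS2, which make cytidine triphosphate, by -0.46 (adjusted p = 0.0930) and 0.39.

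**Figure D4:**
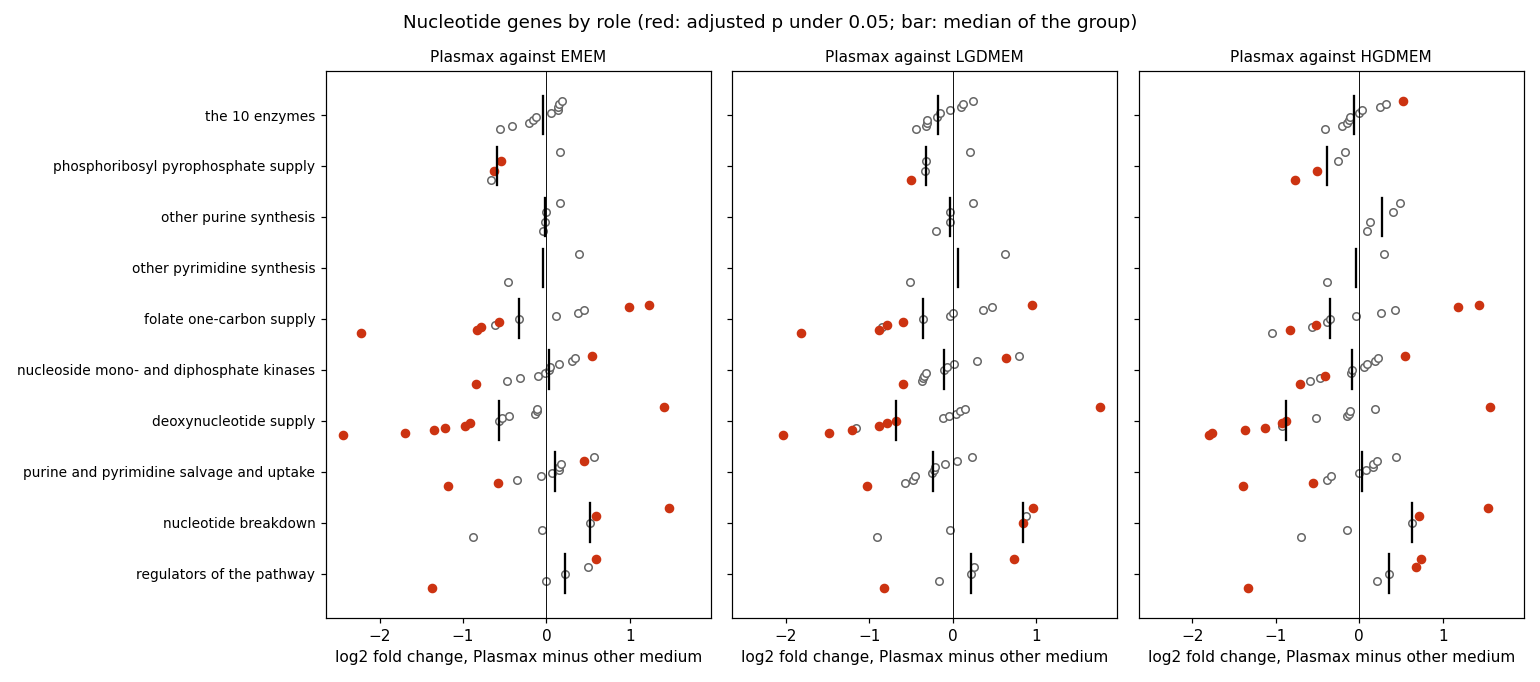
Log2 fold change of nucleotide genes (horizontal axes, Plasmax minus the other medium), by role, each point a gene, red where the adjusted p was under 0.05, with a bar at the median of the group. The 10 enzymes have medians of -0.04, -0.18 and -0.06 against EMEM, LGDMEM and HGDMEM. Their single values run from -0.56 to 0.19, from -0.44 to 0.24 and from -0.42 to 0.52. Of the genes of deoxynucleotide supply, 6 of 13 are red on the left in each panel. Of all genes, 22.1%, 21.2% and 26.9% were called in either direction.

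The genes that supply deoxynucleotides for DNA synthesis had 7 calls in each comparison with Plasmax, in the longest of the lists. The shares of all genes called against EMEM, LGDMEM and HGDMEM were 22.1%, 21.2% and 26.9%. In Plasmax 6 of the 13 fell and 1 rose against each other medium, with a median of -0.57 against EMEM. RRM2, the S-phase subunit of ribonucleotide reductase, fell between EMEM and Plasmax from 266.0 ± 43.3 to 82.2 ± 9.83 CPM (log2 difference -1.69, SE 0.22, adjusted p = 2.5e-05). TK1, the thymidine kinase of dividing cells, fell from 77.4 ± 44.8 to 14.2 ± 3.83 CPM (-2.43, SE 0.47, adjusted p = 0.00119). RRM2B, the reductase subunit that also serves cells outside S phase, rose from 16.5 ± 1.61 to 44.0 ± 9.25 CPM (1.41, SE 0.23, adjusted p = 0.000251). The Plasmax and EMEM libraries did not overlap for these genes. Against HGDMEM the call of TK1 was lost without HGDMEM replicate 3 (-1.09, adjusted p = 0.0935) and with limma voom (adjusted p = 0.0564).

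Folate one-carbon genes, which provide carbon for the purine ring and for thymidylate, moved in both directions. Of 11, 2 rose and 4 fell against EMEM, 1 rose and 4 fell against LGDMEM, and 2 rose and 2 fell against HGDMEM. The shares of all genes called were 22.1%, 21.2% and 26.9%. MTHFD1L, a mitochondrial enzyme, rose from 35.9 ± 2.19 to 84.1 ± 7.58 CPM (1.23, SE 0.20, adjusted p = 0.000249) and MTHFD2 from 304.8 ± 65.0 to 604.0 ± 26.9 CPM (0.99, SE 0.24, adjusted p = 0.00561). ALDH1L1, which removes formyl groups from folate, fell from 6.97 ± 2.00 to 1.47 ± 0.934 CPM (-2.22, SE 0.55, adjusted p = 0.00704). The other 3 called, named here after their values were seen, were FPGS, SHMT1 and MTHFD1, which fell by 0.83, 0.78 and 0.57 on the log2 scale (adjusted p = 0.0142, 0.00327 and 0.0316). MTHFD1 was not called without EMEM 1, Plasmax 1 or Plasmax 3 (adjusted p up to 0.157). The mitochondrial SHMT2 and MTHFD2L did not pass the test (0.44 and 0.38, adjusted p = 0.150 and 0.365). Against LGDMEM, MTHFD1L rose by 0.95 (adjusted p = 0.00202) while MTHFD2 (0.47, adjusted p = 0.165) was not called, but was without LGDMEM replicate 3 (0.89, adjusted p = 0.00261). Fewer folate genes, 3, were called there without LGDMEM replicate 1, Plasmax replicate 2 or Plasmax replicate 3. Against HGDMEM, ALDH1L1 and FPGS were not called (adjusted p = 0.184 and 0.229).

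PRPP supply had 2 of 4 genes lower in Plasmax than in EMEM, a comparison that called 22.1% of all genes. PRPSAP1, a regulatory partner of PRPP synthetase, fell from 152.2 ± 13.7 to 98.3 ± 14.3 CPM (-0.63, SE 0.14, adjusted p = 0.00275), and PRPS1, the synthetase that makes the substrate of PPAT, fell from 114.0 ± 14.3 to 77.9 ± 1.22 CPM (-0.55, SE 0.17, adjusted p = 0.0246). The call of PRPS1 was lost without EMEM 1 or 3, or without any 1 Plasmax library (adjusted p up to 0.0940). PRPS1 was not called against LGDMEM (adjusted p = 0.191), nor PRPSAP1 against HGDMEM (adjusted p = 0.172). Among 11 nucleotide kinases 1 rose and 1 fell in the same comparison, AK3 by 0.54 (adjusted p = 0.00533) and NME4 by -0.84 (adjusted p = 0.00185).

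Salvage, uptake and breakdown genes had 3 of 10 and 2 of 5 calls against EMEM, where 22.1% of all genes were called. Of 10 salvage and uptake genes, PNP, which releases purine bases for HPRT1, rose by 0.45 (adjusted p = 0.0392), and UCK1, a uridine and cytidine kinase, and the nucleoside carrier SLC29A1 fell by 1.18 and 0.58 on the log2 scale (adjusted p = 0.0209 and 0.0304). This count of 3 was 0 without EMEM 1, Plasmax 2 or Plasmax 3 and 1 without EMEM 3. Of 5 breakdown genes, CDA, cytidine deaminase, rose by 1.46 (adjusted p = 0.0142) and the nucleotidase NT5C2 by 0.60 (adjusted p = 0.0357). That count of 2 was 0 without EMEM 1, EMEM 3 or Plasmax 2 and 1 without Plasmax 1. Against LGDMEM, PNP, SLC29A1 and CDA were not called (adjusted p = 0.305, 0.0763 and 0.124), and against HGDMEM PNP was not (adjusted p = 0.441). UCK1 and NT5C2 were called against both. Of 15 alternative fits, UCK1 was called in 9 against LGDMEM (adjusted p up to 0.171) and in 15 against HGDMEM. NT5C2 was called in 15 against LGDMEM and in 12 against HGDMEM (adjusted p up to 0.067). For the 5 regulators given with the promoters, the count of 2 was 1 without EMEM 1 or without Plasmax 1, since MAX then missed the threshold (adjusted p = 0.0623 and 0.0503).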

How the data were processed

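QuantSeq 3′ mRNA libraries of HepG2 in 4 media were analysed from 1 table of whole-number counts per gene that the authors deposited, with no normalization stated. The submitters' processing notes name limma 3.40.6, featureCounts 1.6.3, STAR 2.7.5b, cutadapt 1.16 and FastQC 0.72 with the build hg19/GRCh37. Their roles and the strand setting are not given in the sources used here. Of 11546 rows, 601 without a symbol (2.92% to 3.71% of counts) were left out, leaving 10945. Column names gave medium and replicate, and 0 columns belonged to other samples. The third highest CPM of every row was at least 2.51, so low rows had been removed by a rule not stated, and totals are not full depth.

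Differences were tested with edgeR 4.0.16 (R 4.3.3): quasi-likelihood test, TMM scaling, all 12 libraries, 1 coefficient per medium, filterByExpr (0 genes removed), Benjamini-Hochberg adjustment over all genes, threshold 0.05. SE was obtained from the fold change and the F statistic, with 8 residual and 10.4 prior degrees of freedom. The fit was also run on simulated counts for Plasmax against EMEM, in which the spread of a gene followed its level alone. That run cannot show how the fit behaves for genes of wider spread, such as HPRT1. The members, lists and rules were chosen with earlier results of these data known. All 10 enzymes are named, and of each wider role at most the 3 called genes with the largest change against EMEM, with uncalled genes and 3 further folate genes, named after their values were seen, given as values. Alternatives were RLE, upper-quartile and library-total scaling, a 5 CPM filter, no filter, DESeq2 1.42.0, limma 3.58.1 voom, an adjusted p of 0.01, only the libraries compared, a replicate block, and each library left out. For the wider list they were added after seeing the data. A gene among those closest to IMPDH2 is not reported here.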

Additional observations from a re-analysis of the deposited data

How the results depend on the processing

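Of 900 alternative values for the 10 genes over the 6 comparisons, 895 kept their side of the threshold, 4 gained a call (UMPS and PAICS, given above) and 1 lost it (IMPDH2). The 895 include the values with no filter, which repeat the main fit. No called value changed sign. Of the uncalled, 65 did, all from a log2 difference of at most 0.17 in size and with an adjusted p of at least 0.365. With only the libraries compared, 1 gene was called against EMEM and 2 against HGDMEM, and at an adjusted p of 0.01 the count against HGDMEM was 0. Leaving out a Plasmax or LGDMEM library gave 0 to 1 calls in Plasmax against LGDMEM. Over the 4 media the count of 1 became 0 under upper-quartile scaling, library totals, the replicate block and an adjusted p of 0.01, and ranged from 0 to 1 with a library left out. Replicate numbers were checked for pairing: with all genes, at least 1 of the 3 same-numbered pairs fell short of a correlation of 0.1 in every comparison. With the 4366 genes of higher level (mean log2 CPM over 5), all 3 exceeded it for HGDMEM and EMEM (lowest 0.11) and for HGDMEM and LGDMEM (lowest 0.165). With the replicate block 0 of the 10 genes were called in both, and 1 (IMPDH2) stayed called in Plasmax against HGDMEM. Counts over all genes moved between conventional media, where DESeq2 called 65, 68 and 55 genes in place of 8 (LGDMEM against EMEM), 18 (HGDMEM against EMEM) and 7 (HGDMEM against LGDMEM). Without LGDMEM replicate 1 the first and last were 87 and 118. Leaving out any 1 HGDMEM or EMEM library brought the 18 down to between 1 and 7. Precision was limited by 3 libraries a medium and by mean counts of 91.0 to 116 a library for HPRT1, PPAT and DHODH.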
